A study of Mus musculus with 9 samples.

Results

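Markers of resident adventitial macrophages in mouse aorta were taken as a fixed list of 9 genes, Lyve1, Cd163, Mrc1, F13a1, Folr2, Cbr2, Pf4, Timd4 and Gas6, out of 33293 gene identifiers in the table. The list was given by name, and all 9 genes were present and passed the filter on low values. They were compared between 4 aorta libraries from mice lacking Apoe (Apoe_KO) and 5 from C57BL/6J mice (WT), all male, 7 to 8 weeks old and on normal chow. Apoe encodes apolipoprotein E, a lipoprotein component that receptors use to clear lipoproteins from plasma. The labels name neither the allele nor the strain background of the knockout, and separate animals are not stated, so the p-values measure the spread between these libraries, which may be technical. Whole aorta was sequenced without sorting of cells, so more cells of a type and more RNA per cell cannot be told apart.

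The adventitia, the outer coat of an artery, holds macrophages, some of them seeded before birth, that renew themselves locally. In the mouse they are recognised by surface receptors for uptake, among them LYVE1, CD163, the mannose receptor MRC1, the folate receptor FOLR2 and the phosphatidylserine receptor TIMD4. They also make secreted proteins such as coagulation factor XIII A and platelet factor 4. In mouse arteries the LYVE1-positive cells lie against hyaluronan on smooth muscle cells and keep collagen in check. Several of these genes are not confined to macrophages: lymphatic endothelium makes LYVE1, platelets hold PF4, smooth muscle cells, fibroblasts and endothelium make GAS6, and CBR2 was described in mouse adipocytes.

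Promoter windows were available from RefSeq (GRCm38.p6) for 8 of the 9 genes, each running from 250 bases before the gene start to 50 bases after it. Lyve1 was not matched. The windows of Mrc1, Cd163 and Timd4 are shown because Mrc1 and Cd163 followed each other closely from library to library, with r of 0.82, whereas Cd163 and Timd4 did so with r of 0.05 (Pearson's r of deviations from the genotype mean, 9 libraries). These pairs were not the extremes, since Cd163 with F13a1 had r of 0.87 and Cbr2 with Timd4 -0.50. Capitals mark the core letters of PU.1, the master factor of myeloid cells (GAGGAA or TTCCTC), and a half-site of MAF factors (TGCTGA or TCAGCA), searched on both strands.
Mrc1, chr2:14229164-14229463, plus strand: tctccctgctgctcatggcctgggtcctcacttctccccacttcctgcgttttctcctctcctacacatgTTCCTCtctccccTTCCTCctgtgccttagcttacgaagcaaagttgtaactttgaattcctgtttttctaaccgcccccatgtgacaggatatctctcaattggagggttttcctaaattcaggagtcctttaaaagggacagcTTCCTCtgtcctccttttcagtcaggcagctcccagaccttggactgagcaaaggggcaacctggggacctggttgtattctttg
Cd163, chr6:124304401-124304700, plus strand: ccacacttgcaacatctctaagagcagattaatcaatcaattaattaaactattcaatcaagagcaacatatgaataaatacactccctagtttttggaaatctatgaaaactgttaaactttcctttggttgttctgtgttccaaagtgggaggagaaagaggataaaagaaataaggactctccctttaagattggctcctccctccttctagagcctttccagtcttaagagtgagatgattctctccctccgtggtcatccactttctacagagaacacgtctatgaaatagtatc
Timd4, chr11:46810549-46810848, plus strand: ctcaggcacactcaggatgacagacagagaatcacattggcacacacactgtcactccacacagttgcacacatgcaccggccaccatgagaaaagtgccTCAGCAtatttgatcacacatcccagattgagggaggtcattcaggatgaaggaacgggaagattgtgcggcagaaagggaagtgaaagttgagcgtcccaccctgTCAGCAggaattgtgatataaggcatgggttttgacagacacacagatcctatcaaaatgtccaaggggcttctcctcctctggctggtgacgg
The Mrc1 window held the PU.1 letters 3 times, 180, 167 and 35 bases before the start, each on the opposite strand. The Timd4 window held the MAF letters 2 times, 150 and 44 bases before the start, and the Cd163 window held neither set. Among the 8 genes with a window, 4 (Cbr2, F13a1, Mrc1 and Pf4) held GAGGAA and 3 (Cbr2, Folr2 and Timd4) held TGCTGA on either strand. F13a1 and Folr2 had 2 windows each, 10 windows in all, so these counts are per gene. Of all 32851 windows in the table, 28.3% held GAGGAA and 19.5% held TGCTGA, a share per window that is not directly comparable. A match describes letters in these windows only.

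Values were FPKM, reads or fragments counted on a gene, scaled by its exon length and by the depth of the library. The depth was 17.0 to 19.8 M reads or fragments per library, recovered from the values themselves. The targeted gene followed the labels, with Apoe at 5.64 to 6.55 FPKM in Apoe_KO and at 513 to 643 FPKM in WT. Smooth muscle markers summed to 4894 to 6195 FPKM in Apoe_KO and 4775 to 5676 FPKM in WT. White adipocyte markers summed to 2401 to 4619 FPKM in Apoe_KO and 3734 to 5832 FPKM in WT. The libraries Apoe_KO 4 and WT 2 stood apart, with B and plasma cell markers summing to 412.6 and 494.9 FPKM, against 15.5 to 32.1 FPKM in the other Apoe_KO libraries and 24.8 to 40.7 FPKM in the other WT libraries.

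Among the 9 markers 1, Lyve1, was higher in Apoe_KO at an adjusted p under 0.05 and 0 were lower, and 7 of the 9 log2 fold changes were positive. Of the 13383 genes in the test, 3.43% passed as higher and 3.92% as lower, 7.35% together (limma, Benjamini-Hochberg), and 36.1% of log2 fold changes were positive. The median log2 fold change was 0.19 over the 9 genes and -0.069 over all tested genes. Every fold change was computed as a difference of log2(FPKM + 1), so changes of genes near 1 FPKM are understated. With median centring of the libraries 630 genes passed as higher and 269 as lower over the whole table, against 459 and 524 without it. Only 1 of the 9 genes, again Lyve1, had every Apoe_KO library above every WT library, a pattern that 4.9% of all tested genes showed. Counting separation in either direction, the share over all tested genes was 12.4%.

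**Figure D1:**
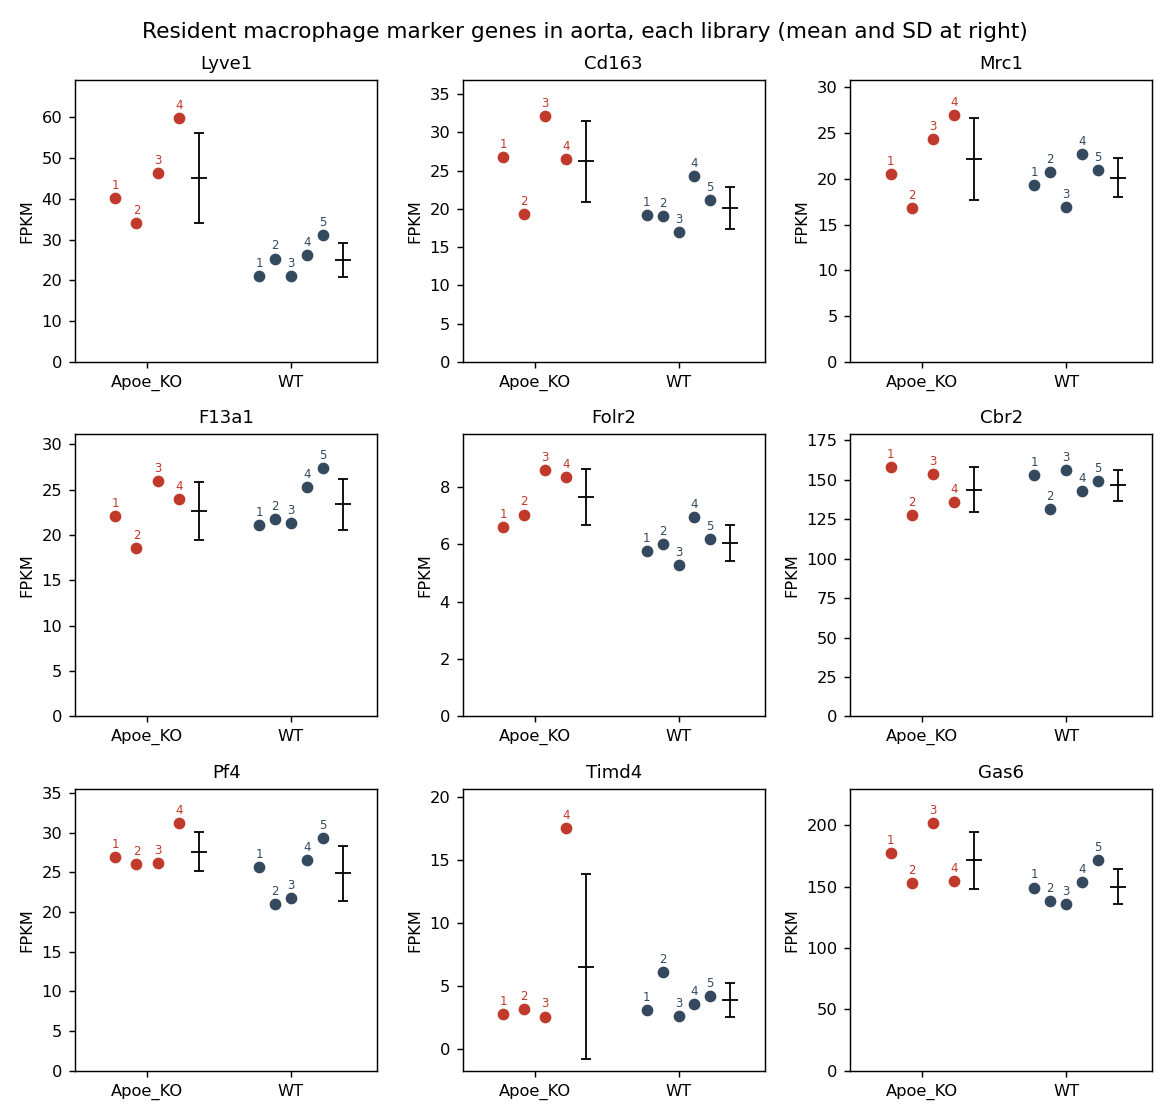
FPKM (vertical axes, from 0 or just below it) of the 9 marker genes in each library, with Apoe_KO libraries 1 to 4 in red and WT libraries 1 to 5 in dark blue; black bars give the mean and SD of each genotype. Lyve1 is at 34.0 to 59.8 FPKM in the Apoe_KO libraries, above all WT libraries (21.0 to 31.0 FPKM), and Timd4 has a single high library, Apoe_KO 4, at 17.5 FPKM.

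LYVE1 is a surface receptor for hyaluronan. Lyve1 (ENSMUSG00000030787, chromosome 7, 110850607 to 110863239, minus strand, GRCm38) was at 40.2, 34.0, 46.3 and 59.8 FPKM in Apoe_KO libraries 1 to 4, against 21.1, 25.3, 21.0, 26.3 and 31.0 FPKM in WT libraries 1 to 5. Every Apoe_KO library lay above every WT library, the lowest being Apoe_KO 2 and the highest Apoe_KO 4. The means were 45.1 ± 11.0 FPKM in Apoe_KO and 25.0 ± 4.15 FPKM in WT (SD, n = 4 and 5), a ratio of 1.81. The log2 fold change was 0.81 (SE 0.16, 95% interval 0.45 to 1.18, limma adjusted p = 0.0196). A two-sided exact permutation test over the libraries gave p = 0.0159, the smallest it can give. The values rested on 1844 to 3204 reads per Apoe_KO library and 1156 to 1685 per WT library. The call was lost in 4 of 20 alternative analyses. It was lost without Apoe_KO 3 (log2 fold change 0.79, limma adjusted p = 0.065) and without WT 2 and Apoe_KO 4 together (0.68, adjusted p = 0.0627). It was also lost with no filter on low values (0.81, adjusted p = 0.0546) and with the replicate number as a block (0.89, adjusted p = 0.0512). Apoe_KO 4, the highest library, was also the Apoe_KO library with the most B cell transcripts. Without it alone the log2 fold change of Lyve1 was 0.67 and stayed called (limma adjusted p = 0.0338). Over all 20 alternatives the adjusted p ran from 0.0104 to 0.065.

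CD163 takes up haemoglobin bound to haptoglobin. Cd163 (chromosome 6, 124304656 to 124330527, plus strand) was at 26.8, 19.3, 32.2 and 26.5 FPKM in Apoe_KO 1 to 4, against 19.1, 19.1, 17.0, 24.3 and 21.2 FPKM in WT 1 to 5. The groups overlapped through Apoe_KO 2, and the other Apoe_KO libraries lay above all WT libraries. The log2 fold change of 0.35 (SE 0.14, 95% interval 0.04 to 0.67) did not pass after adjustment (limma adjusted p = 0.16). Without Apoe_KO 2 it was 0.48 and passed (limma adjusted p = 0.0347, within a range of 0.0347 to 0.358 over the alternatives).

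FOLR2 is the folate receptor of macrophages. Folr2 (chromosome 7, 101839988 to 101857194, minus strand) was at 6.59, 7.04, 8.59 and 8.35 FPKM in Apoe_KO 1 to 4 and at 5.76, 6.01, 5.29, 6.97 and 6.19 FPKM in WT 1 to 5. Only Apoe_KO 1 lay within the WT range, below WT 4. The log2 fold change was 0.29 (SE 0.10, 95% interval 0.08 to 0.51) with a limma adjusted p of 0.0928, and median centring of the libraries gave 0.36 with an adjusted p of 0.0465, the lowest of its alternatives (up to 0.252). Folr2 rested on 154 to 250 reads per library, and 975 of its 1546 exonic bases overlap Gm10602 on the opposite strand. Whether the counting used strand is not stated, so reads of Gm10602 could be among those of Folr2. Folr1, the epithelial folate receptor gene, stayed at or below 0.119 FPKM in Apoe_KO and 0.396 FPKM in WT.

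MRC1 is the mannose receptor, an endocytic receptor for glycoproteins and collagen fragments. Mrc1 (chromosome 2, 14229392 to 14332057, plus strand) was at 20.5, 16.8, 24.3 and 27.0 FPKM in Apoe_KO 1 to 4 and at 19.3, 20.7, 17.0, 22.7 and 20.9 FPKM in WT 1 to 5. Apoe_KO 2 was the lowest of all 9 libraries and Apoe_KO 4 the highest, so that the genotypes were interleaved. Its log2 fold change was 0.12 (95% interval -0.17 to 0.41, limma adjusted p = 0.621).

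TIMD4 binds phosphatidylserine on dying cells. Timd4 (chromosome 11, 46810800 to 46844332, plus strand) was at 2.78, 3.17, 2.57 and 17.5 FPKM in Apoe_KO 1 to 4 and at 3.07, 6.06, 2.59, 3.56 and 4.2 FPKM in WT 1 to 5. Apoe_KO 4 alone was high in its group, and WT 2 was the highest WT library. The log2 fold change of 0.25 had an interval of -0.79 to 1.30 (limma adjusted p = 0.775), and without Apoe_KO 4 it was -0.31 (adjusted p = 0.38, within 0.123 to 0.925 over the alternatives). Apoe_KO 4 and WT 2 were also the libraries with the most B cell transcripts. Cd79a, a B cell receptor gene, was at 65.1 FPKM in Apoe_KO 4 and at 0.51 to 0.77 FPKM in the other Apoe_KO libraries, against 54.2 FPKM in WT 2 and 1.11 to 2.78 FPKM in the other WT libraries. Siglec1, a sialic acid receptor of macrophages that line lymph node sinuses, was at 10.6 FPKM in Apoe_KO 4 and 7.38 FPKM in WT 2, and at most 3.20 FPKM elsewhere. Stab2, of sinusoidal endothelium, was at 2.40 and 1.79 FPKM in the same 2 libraries and at most 0.061 FPKM in the others. With the B and plasma cell mean as a covariate, added after seeing the data, the log2 fold change of Timd4 was 0.36 (SE 0.25, limma adjusted p = 0.376). The part of these cells in the Timd4 level was not tested beyond that covariate.

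**Figure D2:**
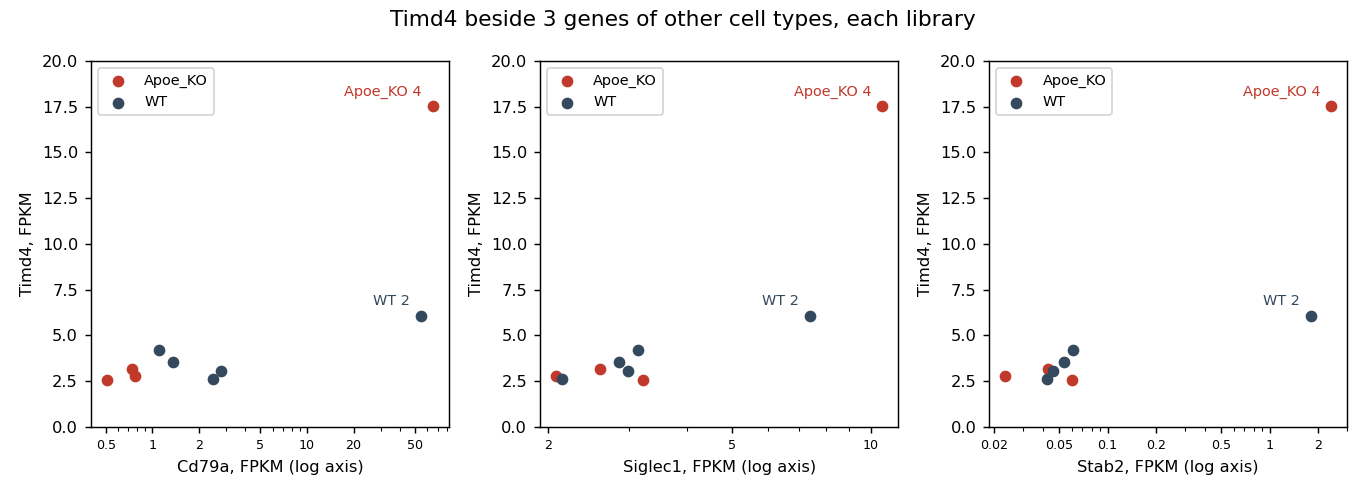
Timd4 FPKM (vertical axis) in each library against FPKM of Cd79a, Siglec1 and Stab2 (log axes), with Apoe_KO in red and WT in dark blue. Apoe_KO 4 (17.5 FPKM of Timd4) and WT 2 (6.06 FPKM) lie to the right of the other libraries in every panel.

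F13a1 encodes the catalytic subunit of factor XIII, which crosslinks fibrin. F13a1 (chromosome 13, 36867178 to 37050244, minus strand) was at 22.1, 18.6, 26.0 and 24.0 FPKM in Apoe_KO 1 to 4 and at 21.1, 21.7, 21.3, 25.4 and 27.4 FPKM in WT 1 to 5, and no Apoe_KO library exceeded the highest WT library. Its log2 fold change was -0.05 (95% interval -0.29 to 0.20, limma adjusted p = 0.831). Tgm2, for the tissue transglutaminase, was higher at 128 ± 10.9 FPKM in Apoe_KO against 87.6 ± 6.03 FPKM in WT (log2 fold change 0.53, limma adjusted p = 0.00574), the 1 gene called among the 3 tested for fibrin crosslinking, F13a1 included. Tgm2 shares 633 exonic bases with the opposite-strand gene Gm20412 and 370 with Rprd1b.

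Pf4 encodes a chemokine of platelet granules that adventitial macrophages also express in the mouse. Pf4 (chromosome 5, 90772435 to 90773383, plus strand) was at 26.9, 26.0, 26.2 and 31.2 FPKM in Apoe_KO 1 to 4, against 25.6, 21.0, 21.8, 26.5 and 29.4 FPKM in WT 1 to 5, with a log2 fold change of 0.15 (95% interval -0.08 to 0.38, limma adjusted p = 0.403). Other platelet genes were at lower levels. The platelet chemokine gene Ppbp was at 0.189 to 1.26 FPKM in Apoe_KO and 0.338 to 4.72 FPKM in WT (log2 fold change -0.72, limma adjusted p = 0.287). Itga2b and Gp1bb had log2 fold changes of 0.02 and -0.16 with adjusted p of 0.967 and 0.537 (limma). The other 7 genes of the list, among them Gp9, Gp1ba, Gp5, Treml1, Tubb1 and F2rl2, did not pass the filter, and the 10 platelet genes together summed to 2.39 to 6.77 FPKM in Apoe_KO and 3.04 to 12.6 FPKM in WT.

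Gas6 is a vitamin K-dependent ligand of the TAM receptors TYRO3, AXL and MERTK and bridges them to dying cells. Gas6 (chromosome 8, 13465374 to 13494490, minus strand) was at 177, 153, 202 and 154 FPKM in Apoe_KO 1 to 4 and at 149, 139, 136, 154 and 172 FPKM in WT 1 to 5. Apoe_KO 1 and 3 lay above every WT library, and Apoe_KO 2 and 4 lay among them. The log2 fold change was 0.19 (95% interval -0.05 to 0.42, limma adjusted p = 0.301). Of Gas6's 3 receptor genes and Pros1, the gene of the second ligand protein S, 2 of 4 were called higher and 0 lower. Mertk (chromosome 2) was at 37.8, 27.0, 34.5 and 32.2 FPKM in Apoe_KO 1 to 4, against 15.0, 16.0, 19.3, 17.9 and 16.9 FPKM in WT 1 to 5 (log2 fold change 0.91, SE 0.10, limma adjusted p = 0.0015), and it stayed called in all 20 alternative analyses. Axl, on chromosome 7 at 25757273 to 25788705, had means of 112 ± 11.2 FPKM in Apoe_KO and 86.7 ± 3.84 FPKM in WT (0.36, limma adjusted p = 0.0254). Its groups did not overlap, but the call was lost without Apoe_KO 1 (adjusted p = 0.0655), Apoe_KO 3 (0.082), WT 1 (0.0511), WT 2 (0.059) or WT 4 (0.0631). Tyro3 at -0.14 and Pros1 at 0.06 did not pass (limma adjusted p = 0.57 and 0.65). Among 8 tested phosphatidylserine receptor and bridging genes, Timd4 included, Mertk and Axl were again the 2 called.

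**Figure D3:**
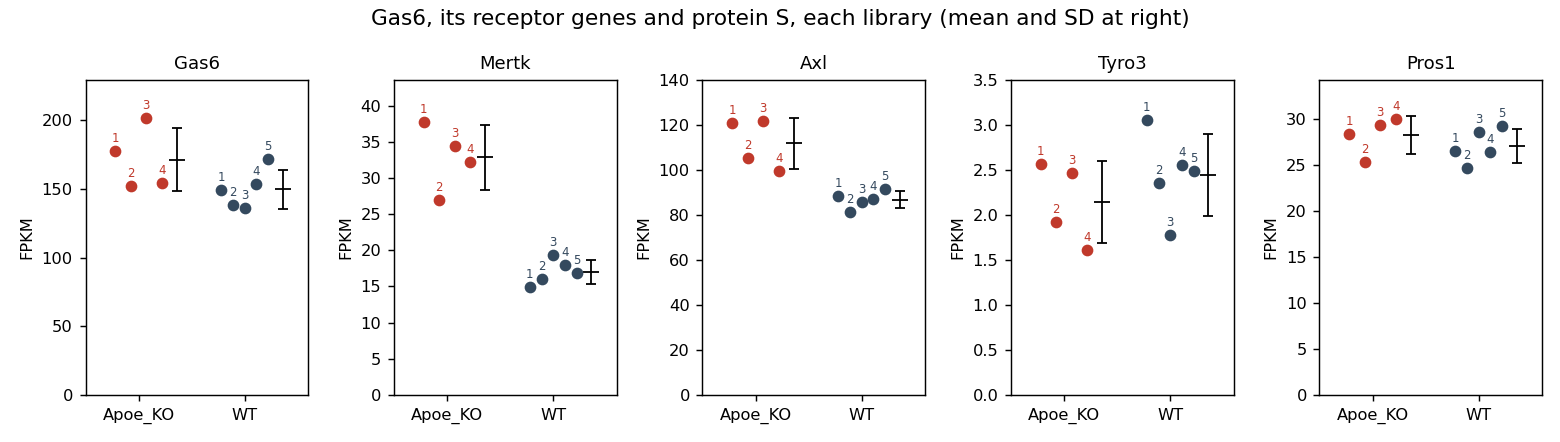
FPKM (vertical axes, from 0) of Gas6, its receptor genes Mertk, Axl and Tyro3, and Pros1 in each library, with Apoe_KO in red at left and WT in dark blue at right and the mean and SD as black bars. Mertk is at 27.0 to 37.8 FPKM in Apoe_KO and 15.0 to 19.3 FPKM in WT, whereas the Gas6 libraries of the genotypes overlap.

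CBR2 is a mitochondrial carbonyl reductase. Cbr2 (chromosome 11, 120729489 to 120732114, minus strand) was at 158, 127, 154 and 136 FPKM in Apoe_KO 1 to 4 and at 153, 131, 156, 143 and 149 FPKM in WT 1 to 5. The groups covered nearly the same range, and the log2 fold change was -0.03 (95% interval -0.22 to 0.16, limma adjusted p = 0.861). Of the 4 carbonyl reductase genes, Cbr2 included, 0 passed, and Cbr1 had the smallest p, with a log2 fold change of -0.37 (limma adjusted p = 0.0599), which passed without Apoe_KO 2 (adjusted p = 0.0102). Of 7 white adipocyte markers all had negative log2 fold changes (median -0.50), where 36.1% of all tested genes had positive ones. The 2 called lower were Lep, the leptin gene (-1.74, limma adjusted p = 0.0276), and Plin1, of the lipid droplet coat (-0.56, adjusted p = 0.0466). The Lep call was lost without Apoe_KO 3, WT 1, WT 2 or WT 4 (adjusted p = 0.085, 0.0563, 0.0592 and 0.0698). Plin1 kept its call only when Apoe_KO 2 was the library left out, with adjusted p of 0.0582 (without WT 2) to 0.128 (without Apoe_KO 3) for the others. The part of adipocytes in the Cbr2 level was not tested.

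**Figure D4:**
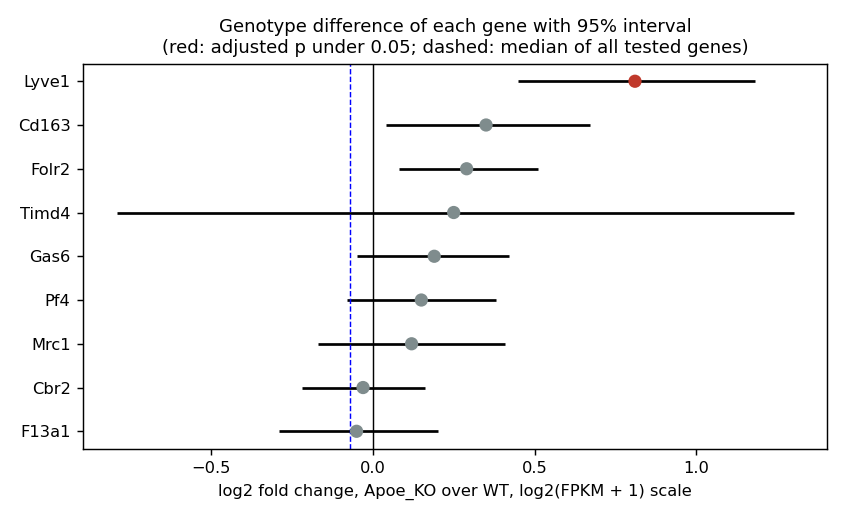
Log2 fold change of Apoe_KO over WT on the log2(FPKM + 1) scale (horizontal axis) of each marker gene with its 95% interval from limma; red marks an adjusted p under 0.05 and the dashed line is the median of all tested genes, -0.069. Lyve1 stands at 0.81, the other 8 genes lie between -0.05 and 0.35, and the interval of Timd4 (-0.79 to 1.30) is the widest.

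On the FPKM scale, which is per length, Gas6 and Cbr2 were the most abundant of the 9 genes in both genotypes, with means of 171 and 144 FPKM in Apoe_KO and 150 and 146 FPKM in WT, and their ranges overlapped. Their ranges lay above those of all other members. Lyve1 came next in both genotypes. In Apoe_KO its range lay above that of Pf4, the next gene. In WT, by contrast, the ranges of Lyve1, Pf4, F13a1 and Cd163 each overlapped that of the next gene in order, down to Mrc1. Folr2 and Timd4 came last in both genotypes.

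Deviations from the genotype mean were compared between genes over the 9 libraries, as a description, since all points share library and depth. Pearson's r was above 0.5 in 18 of 36 gene pairs and below 0 in 4. The share over all gene pairs was not computed, so these counts have no background beside them. Lyve1 with Mrc1 reached 0.88, Cd163 with F13a1 0.87 and Cd163 with Mrc1 0.82, and over the other 8 libraries, without Apoe_KO 4, these were 0.83, 0.88 and 0.94. Cbr2 went with Timd4 at -0.50 and with Lyve1 at -0.07. Apoe_KO 2 was the lowest library for 3 of the 9 genes and WT 3 for 4, while Apoe_KO 4 was the highest for 4. Among the 5 other genes whose deviations followed the mean of the members most closely were Cp, for the ferroxidase ceruloplasmin (r = 0.97), and Uhrf1bp1l (0.96). Cul1, a scaffold of ubiquitin ligases (0.95), and Dse, which epimerises dermatan sulfate (0.94), were also among them, each over 9 libraries. They were the top of a search over all tested genes outside the members, so high r was selected for, and no background was computed.

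Since LYVE1 is also made by lymphatic endothelium, Lyve1 was set against other markers within each library, a comparison chosen with its increase known. Relative to Mrc1, Lyve1 stood at 1.90 to 2.22 in Apoe_KO and at 1.09 to 1.48 in WT. Relative to Csf1r, the receptor gene of the macrophage growth factor CSF1, it stood at 1.51 to 1.67 in Apoe_KO and 0.919 to 1.16 in WT. The groups did not overlap in either ratio, a pattern that 1.17% and 0.702% of tested genes showed against the same denominators. Relative to the lymphatic transcription factor gene Prox1 the ratio was 28.9 to 33.6 in Apoe_KO and 12.2 to 15.7 in WT (12.9% of tested genes), and relative to Flt4, a lymphatic growth factor receptor gene, it was 10.4 to 13.2 in Apoe_KO and 5.47 to 6.61 in WT (4.98%). Against Pdpn, Mmrn1 and Pecam1 the groups were likewise separate (1.1%, 2.69% and 0.717% of tested genes), and against Cd163 they overlapped, at 1.44 to 2.26 in Apoe_KO and 1.08 to 1.46 in WT (0.433% of tested genes were separate there). All 8 ratios share Lyve1 as numerator, so they are a description and not separate tests. Set against the mean log2 level of the pan-macrophage genes, Lyve1 was at 1.88 to 2.56 times that level in Apoe_KO and 1.38 to 1.86 times in WT, without overlap (0.344% of tested genes), whereas the other 8 members overlapped. With that mean as a covariate, the log2 fold change of Lyve1 was 0.58 (limma adjusted p = 0.0385).

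**Figure D5:**
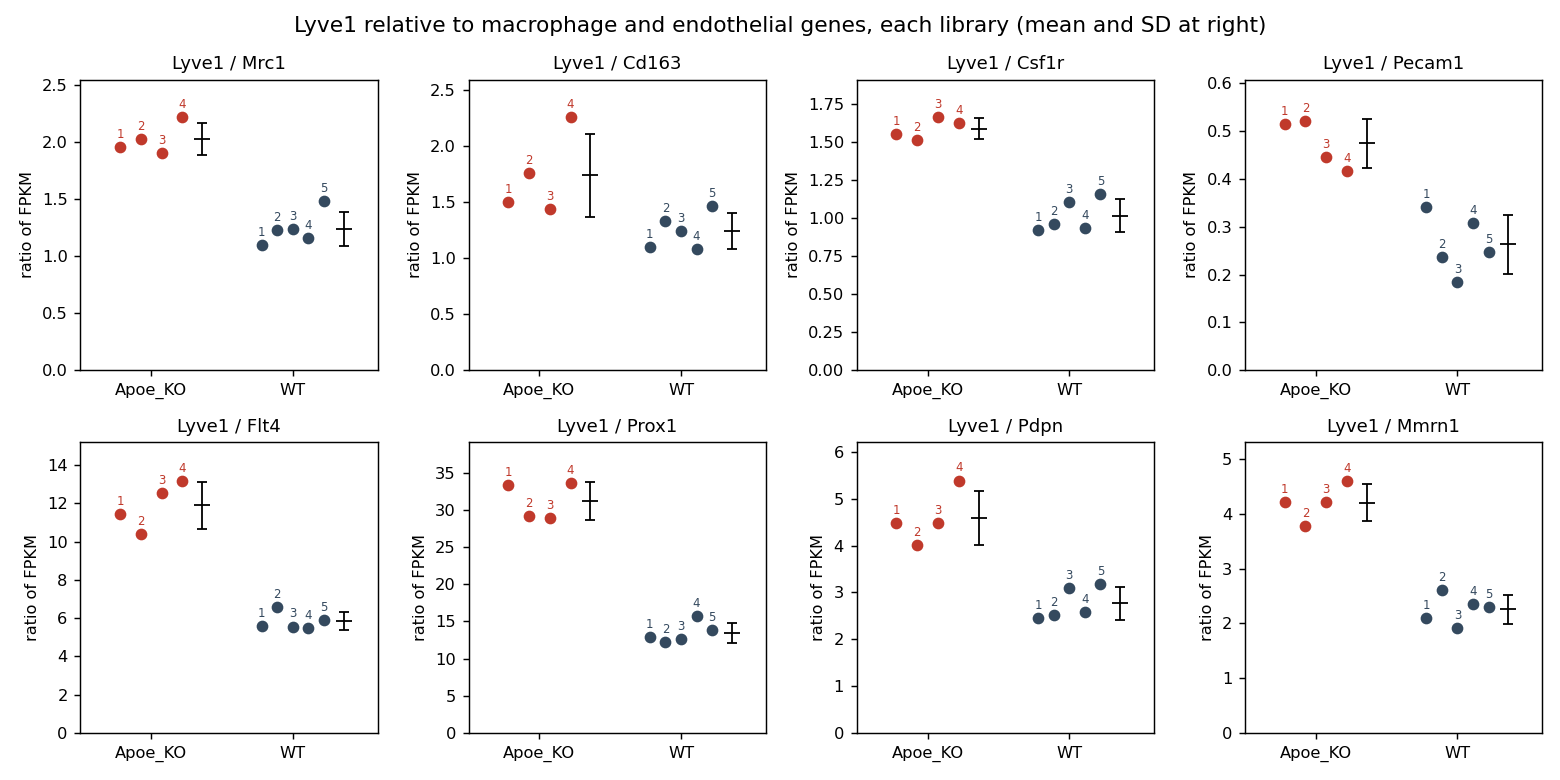
Ratio of Lyve1 FPKM to the FPKM of 8 other genes (vertical axes, from 0) in each library, with Apoe_KO in red at left and WT in dark blue at right and the mean and SD as black bars. In 7 panels every Apoe_KO library lies above every WT library; against Cd163 the lowest Apoe_KO ratio (1.44) is below the highest WT ratio (1.46).

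Lymphatic endothelial markers themselves had 1 of 9 tested members higher and 0 lower, with a median log2 fold change of -0.06. The list summed to 63.6 to 92.8 FPKM in Apoe_KO and 52.2 to 105.8 FPKM in WT. The member that rose was Sema3d, a semaphorin gene, at 18.0 ± 2.34 FPKM in Apoe_KO and 12.5 ± 0.768 FPKM in WT (0.49, limma adjusted p = 0.0117). Prox1 (-0.23), Flt4 (-0.15), Pdpn (0.10), Reln (-0.17) and Mmrn1 (-0.06) did not pass, with limma adjusted p of 0.24, 0.448, 0.665, 0.252 and 0.793. Nts at 0.25 and Foxc2 at 0.39 did not pass either (limma adjusted p = 0.65 and 0.0787). Ccl21a, which has near-identical copies that counting could split, ranged from 0.92 to 41.4 FPKM in Apoe_KO and 3.27 to 48.0 FPKM in WT. Stab2 was below the filter. Of 8 blood endothelial markers 0 were higher and 1 was lower, with 7 negative log2 fold changes and a median of -0.38. Over all tested genes 36.1% of log2 fold changes were positive and the median was -0.069. The endothelial marker that fell was Kdr, a VEGF receptor gene (-0.58, limma adjusted p = 0.0184). Its call was lost without Apoe_KO 3 (adjusted p = 0.0641) and with no filter on low values (0.0516).

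Pan-macrophage genes had 2 of 15 tested members higher and 0 lower, with 14 positive log2 fold changes and a median of 0.18. They were Mertk and Cd14, the lipopolysaccharide co-receptor gene. Cd14 was at 10.4, 24.5, 18.7 and 25.7 FPKM in Apoe_KO 1 to 4 and at 6.76, 7.45, 5.71, 8.11 and 10.7 FPKM in WT 1 to 5 (1.2, limma adjusted p = 0.0238). The Cd14 call was lost without Apoe_KO 3 (adjusted p = 0.0714), Apoe_KO 4 (0.0526), WT 1 (0.0544) or WT 4 (0.0557). Csf1r was at 22.5 to 36.9 FPKM in Apoe_KO and 19.1 to 28.1 FPKM in WT (0.18, limma adjusted p = 0.49). The summed level of the 16 genes was 514 to 1057 FPKM in Apoe_KO, highest in Apoe_KO 4, and 402 to 697.5 FPKM in WT, highest in WT 2, and its part in the Lyve1 level was not tested beyond the covariate above.

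Other genes of resident macrophages, a list of 20, had 0 of 19 tested members higher and 2 lower, with a median log2 fold change of -0.12. Igf1, the growth factor gene that fibroblasts also express, was at 9.03 ± 1.75 FPKM in Apoe_KO and 14.6 ± 2.35 FPKM in WT (-0.64, limma adjusted p = 0.0264). Its call was lost without WT 1 (adjusted p = 0.058), WT 4 (0.0561) or WT 5 (0.0508). Cd209g, a lectin gene of the DC-SIGN family with close copies, was at 0.80, 1.72, 0.82 and 0.97 FPKM in Apoe_KO 1 to 4 and at 2.55, 1.86, 1.66, 2.69 and 2.20 FPKM in WT 1 to 5 (-0.63, limma adjusted p = 0.0358). Its call held only without Apoe_KO 2 or WT 3 when single libraries were left out, and the adjusted p without the others was 0.0537 (WT 2) to 0.108 (Apoe_KO 3). Inflammatory and foamy macrophage genes had 1 of 8 tested members higher and 0 lower. This was Spp1, the osteopontin gene, at 7.00 ± 2.06 FPKM in Apoe_KO and 2.94 ± 0.714 FPKM in WT (1.01, limma adjusted p = 0.0118), which shares 309 exonic bases with Gm42793. The other 10 of that list, among them Trem2, Il1b and Tnf, were below the filter.

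Genes that work with the uptake receptors were taken by role. Of 8 tested genes of hyaluronan synthesis, breakdown and binding 0 passed, a list that leaves out the called receptor gene Lyve1. The hyaluronan synthase gene Has1 had the smallest p of that list, at 0.711 to 8.76 FPKM in Apoe_KO and 0.559 to 1.72 FPKM in WT. Its log2 fold change was 1.16 (limma adjusted p = 0.152, and 0.0453 without Apoe_KO 1). Of 9 tested genes of haemoglobin and haem handling 1 was higher, Blvrb, for biliverdin reductase B, on chromosome 7 at 27447978 to 27466144 (0.37, limma adjusted p = 0.0341). Its call held only without Apoe_KO 4 or WT 2 when single libraries were left out, with adjusted p of 0.0554 (without Apoe_KO 2) to 0.0932 (without Apoe_KO 3) for the others. Of 7 tested growth factor and receptor genes for macrophages 0 passed, with Il4ra at 0.53 (limma adjusted p = 0.199). The folate carrier gene Slc46a1 at -0.35, Mrc2 of the mannose receptor family at 0.16 and Cxcl12 among PF4-related chemokines at -0.21 had the smallest p of their lists apart from the members and did not pass (limma adjusted p = 0.123, 0.271 and 0.117). Of the remaining cell types, smooth muscle markers had 7 of 8 log2 fold changes positive (median 0.20) and 1 higher, Des, the desmin gene (0.39, limma adjusted p = 0.0246), whose call was lost without Apoe_KO 1 (0.0605), WT 1 (0.0534), WT 4 (0.0637) or WT 5 (0.0544). Fibroblast, brown adipocyte, red cell, lymphocyte and dendritic cell markers had 0 called. Their members of smallest p were Col1a1 at -0.64 (limma adjusted p = 0.0592; 0.0289 without Apoe_KO 3), Elovl3 at -0.28 (0.598), Hbb-bt at -1.73 (0.185), Ighm at -0.34 (0.858), Nkg7 at -0.65 (0.347) and Clec9a at -0.44 (0.105).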

How the data were processed

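RNA of mouse aorta was sequenced in 9 libraries, 4 Apoe_KO and 5 WT. Per the labels' protocols ribosomal RNA was removed before library preparation, although the labels' molecule field names polyA RNA. GRCm38 and limma are named in the submitters' processing notes, and the aligner, the counter and strandedness are unstated in the sources used here. A single table without a unit in its header was deposited, and the deposited values were read as FPKM because value times exon length in GENCODE mouse release M21 was a whole number of reads at 1 depth per library. Within 0.1 read this held for 97.6% to 97.9% of values up to 50 reads. Symbols and positions came from that annotation, which held 33240 of the 33293 identifiers.

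The test was limma 3.58.1 (R 4.3.3, trend and robust options) on log2(FPKM + 1) of the 13383 genes that reached 1 FPKM in 4 or more libraries, genotype being the only term, with Benjamini-Hochberg adjustment over all tested genes and a threshold of 0.05. Intervals are unadjusted. Permutation tests covered all 126 splits. The steps were tested on simulated data. Members and gene lists were chosen with earlier results of these data known. Genes named were the members, up to 3 called genes per list by smallest p or otherwise the 1 of smallest p, all lymphatic and platelet markers, and the 5 genes most like the members, some of which are not reported here. Apoe, Csf1r, Cd79a, Siglec1, Pecam1, Folr1, Tyro3, Pros1, Trem2, Il1b, Tnf and the genes near Lyve1 were named beyond that rule, with their values seen. Alternatives were the replicate number as a block, each library left out, WT 2 and Apoe_KO 4 left out together, a pseudocount of 0.1, filters of 10 FPKM or none, quantile normalization, median centring, library weights, voom on reads recovered from FPKM, and the pan-macrophage mean as a covariate. The B and plasma cell mean as a covariate was added after seeing the data.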

Additional observations from a re-analysis of the deposited data

Results flagged for a closer look

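Single libraries stood far from the rest of their genotype, by a gap test at the 95% level that chance passes in about 1 of 20 groups. This held for 75 of the 365 combinations of gene and genotype examined over all lists, and those of the genes named in the text are given here. Among the 18 combinations of member and genotype 1 did so, near the rate that chance gives, Timd4 at 17.5 FPKM in Apoe_KO 4. The same library stood apart for Cd79a (65.1 FPKM), Ighm (226 FPKM), Siglec1 (10.6 FPKM), Stab2 (2.40 FPKM), Il4ra (16.4 FPKM) and the platelet integrin gene Itga2b (1.85 FPKM). Among the WT libraries WT 2 stood apart for Cd79a (54.2 FPKM), Ighm (252 FPKM), Siglec1 (7.38 FPKM), Stab2 (1.79 FPKM), Nkg7 (5.28 FPKM) and Blvrb (11.3 FPKM). Apoe_KO 2 stood apart for Ccl21a (41.4 FPKM) and Elovl3 (9.56 FPKM), and WT 1 for Gp9 (1.67 FPKM).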

How the results depend on the processing

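The 1 member called higher became 0 with the replicate block, without WT 2 and Apoe_KO 4 together and with no filter on low values, and 2 with median centring. It was 0 to 2 when single libraries were left out, and 0 members were called lower in every alternative. Lyve1 had a positive log2 fold change in all 20 alternatives, 0.58 to 0.93, with adjusted p of 0.0104 to 0.065 (limma), and 0.0546 with no filter, where 30432 genes were tested. Whether the replicate numbers pair the libraries cannot be decided from the values. Deviations of same-numbered libraries correlated at 0.26, -0.27, -0.13 and -0.22, and 1 of 4 Apoe_KO libraries correlated best with its own number. Apoe_KO 4 and WT 2, the libraries with the most B cell transcripts, correlated at 0.61, which could mask a pairing. With the replicate block Lyve1 was at 0.89 (adjusted p = 0.0512), and the genes called over the whole table were 121 higher and 62 lower, against 459 and 524 without the block. Among the other genes called in the text, Mertk, Sema3d and Tgm2 kept their call in all 20 alternatives. Spp1 lost it only with the replicate block (1.05, adjusted p = 0.0762), and Kdr in 3 alternatives, that block (0.115) included. Lep, Igf1, Cd14, Des, Axl, Blvrb, Cd209g and Plin1 lost theirs in 5 to 13 alternatives.

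Over the whole table, calls higher and lower were 203 and 174 without WT 2 and Apoe_KO 4 together, 247 and 198 with no filter, and 702 and 1055 with library weights. Those lower were 220 with a filter of 10 FPKM, 269 with median centring, where 630 were higher, and 240 with quantile normalization. With single libraries left out they ran from 205 to 576 higher and from 178 to 683 lower. Median centring moved the median of all genes to -0.0012.

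The log2 fold changes of the members F13a1, Cbr2, Mrc1 and Timd4, and that of Ighm, a B cell gene outside the members, changed sign between alternatives. F13a1 was at 0.01 with the replicate block, 0.022 with median centring and up to 0.043 with single libraries left out (-0.11 at the lowest). Cbr2 was at 0.038 with median centring, 0.016 with library weights, 0.05 with the pan-macrophage covariate and -0.077 to 0.026 with single libraries left out. Mrc1 was at -0.05 with that covariate. Timd4 was at -0.172 without WT 2 and Apoe_KO 4 together, -0.062 with library weights, -0.565 with the pan-macrophage covariate and -0.314 (without Apoe_KO 4) to 0.479 with single libraries left out. Ighm was at -1.253 (without Apoe_KO 4) to 0.303 (without WT 2). The cause of these changes was not tested. Folr2 and Timd4 were not tested with the filter of 10 FPKM. Folr2 (154 to 250 reads) and Timd4 (105 reads at the lowest) rest on the fewest reads.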

Other observations

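Lyve1 and Folr2 lie on the chromosome of Apoe, 91.2 Mb and 82.2 Mb from it. The called genes Axl, Blvrb and Plin1 are also on chromosome 7, and the part of position in their calls was not tested. Within 5 Mb of Lyve1, a window chosen after its values were seen, 8 of the 44 other tested genes were called, 6 higher and 2 lower (18.2%), against 7.35% over the whole table and 9.74% on chromosome 7. The nearest of them was Adm, the gene of the vasodilator peptide adrenomedullin, 0.23 Mb away (log2 fold change 0.83, limma adjusted p = 0.0258). Wee1, a mitotic kinase gene, was at 0.65 (adjusted p = 0.00803), Dkk3 at 0.47 (0.0387), the Hippo pathway factor gene Tead1 at 0.44 (0.0274), Ipo7, an import receptor gene, at 0.36 (0.012) and the deubiquitinase gene Usp47 at 0.26 (0.041). Akip1 and Olfml1 were lower at -0.46 (0.0457) and -0.45 (0.0456). Within 5 Mb of Folr2, 1 of 95 was higher and 5 lower (6.32%), and within 5 Mb of Apoe 4 of 90 were higher and 11 lower (16.7%).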
